A study of Mus musculus with 2 samples.

Results

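The gastroesophageal squamocolumnar junction (GE-SCJ) is the border at which the stratified squamous lining of the esophagus gives way to the columnar lining of the stomach. The cells described here are the fibroblasts of that border in the mouse pup, taken as the cells with the deposited class Stromal and the deposited region and stage label of the pup junction. There were 82 such cells among 7808 cells in all, among 3442 cells of the class Stromal, and among 615 cells of every class from the pup GE-SCJ (13.3%, exact binomial interval 10.8% to 16.3%). All animals were wild-type C57BL/6 mice. The groups compared were the GE-SCJ at embryonic day 19 (E19, 588 fibroblasts) and the pup esophagus (151) and pup stomach (78), with pups at postnatal day 2. The GE-SCJ at embryonic day 15 (E15, 350 cells) and in 8-week-old adults (15 cells) served as side values. The 15 adult cells lay near the E19 cells in the cell cycle and fetal gene lists given below. Their values are therefore not read as a level of adult fibroblasts. Tissue was opened with collagenase II, and cells of several animals were pooled under 1 lipid-anchored oligonucleotide tag per region and stage, so each group was 1 sample without replicates and no test between groups was possible. Intervals given below are 95% intervals for counting error only. A level summed over cells does not say how many of them carried the RNA, which is given apart for some genes.

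Fibroblasts build and remodel the collagen, proteoglycan and elastic matrix under an epithelium. They also send it WNT, BMP, FGF and hedgehog-dependent cues, and in the gut their signals differ along the tract from esophagus to stomach. Before birth the mesenchyme of the gut grows fast, and its fibroblasts divide.

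The tag that a cell carried is what assigned it to a group, so the oligonucleotides of the 4 groups are shown first, in lower case and 5′ to 3′.
Pup GE-SCJ (tag CMO308): cggattccacatcat
E19 GE-SCJ (tag CMO305): cgcgatatggtcgga
Pup esophagus (tag CMO307): aagctcgttggaaga
Pup stomach (tag CMO309): gttgatctataacag
No cell barcode occurred under more than 1 tag (0 of 7808), and the tag agreed between both deposited lists for every cell.

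The 82 fibroblasts held 393660 unique molecular identifiers (UMIs, each one captured RNA molecule), with a median of 4242.5 per cell and a range from 1488 to 11827. The E19 GE-SCJ cells were deeper, at a median of 9080 UMIs and 5719877 in all. The pup esophagus held 627893 UMIs at a median of 3859 per cell, and the pup stomach held 446519 at a median of 5072.5. A level is the number of UMIs of a gene in every 1000000 UMIs of the summed cells (CPM), and 1 UMI was worth 2.54 CPM in the pup GE-SCJ. Ratios are log2 ratios of sums after adding 1 UMI to each, over genes with at least 100 UMIs in both groups together. A gene counts as higher or lower when the ratio reached 2-fold.

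The cells carried the fibroblast markers. The authors named the classes from these same counts by known markers, so the values describe the cells and do not test the label. Type I collagen alpha 1 (Col1a1) stood at 7235 CPM and was seen in 81 of the 82 cells, type III collagen (Col3a1) stood at 12699 CPM in 80 cells, and the collagen-binding proteoglycan decorin (Dcn) at 3813 CPM in 76 cells. All of Col1a1, Col3a1 and Dcn were seen in 75 of 82 cells (91.5%, exact interval 83.2% to 96.5%). In immune cells of the same tag, at a higher median depth of 5557 UMIs, the same 3 genes were seen together in 2 of 30 cells (6.67%). Columnar epithelial cells of the tag, at a median of 22286 UMIs, held all 3 in 77 of 291 cells. After thinning each cell to 3000 UMIs the shares were 67 of 74 fibroblasts, 0 of 25 immune cells and 2 of 290 columnar cells. Lumican (Lum), a second proteoglycan of collagen fibrils, was lower, at 356 CPM in 45 of 82 cells, against 815 CPM in the pup esophagus, 258 CPM in the pup stomach and 879.9 CPM in the E19 GE-SCJ.

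Markers of other cell types ranged from 0 to well above it. Ptprc, Cd74 and C1qa of immune cells, Cdh5 and Plvap of endothelium, Sox10 and S100b of glia, and Upk3b and Msln of mesothelium had no UMI in the 82 cells. The immune list summed to 25.4 CPM, the endothelial list to 20.3 CPM and the list of enteric glia and neurons to 15.2 CPM. The mesothelial list summed to 71.1 CPM, led by Krt19 at 63.5 CPM. Squamous markers summed to 234 CPM. The 8 listed columnar markers summed to 1567 CPM, led by the mucosal peptide Tff1 at 818 CPM. Columnar epithelial cells of the same tag held Tff1 at 12176 CPM and immune cells held it at 817 CPM. The part of RNA from other cells in this level was not tested. The 8 smooth muscle markers summed to 998 CPM in the pup GE-SCJ, 2853 CPM at E19, 659 CPM in the pup esophagus and 1447 CPM in the pup stomach.

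The 82 cells were not uniform. The deposited clustering placed 73 of them in graph cluster 9, which also took 149 of 151 fibroblasts of the pup esophagus, 60 of 78 of the pup stomach, and 4 of 588 of the E19 GE-SCJ. The remaining 9 cells lay in clusters 0 and 3, which held 380 and 204 of the E19 GE-SCJ cells. These 9 cells carried 10.0% of the UMIs. They held 30 of the 35 UMIs of Kit and 19 of the 20 UMIs of Ano1, a receptor and a chloride channel of the pacemaker interstitial cells of Cajal. They also held 87 of the 127 UMIs of smooth muscle actin (Acta2) and 91 of the 130 UMIs of transgelin (Tagln). In the same 9 cells Serpina3n, Clec3b, Dpt and Penk had no UMI, while the other 73 cells held 137, 299, 285 and 226. Col1a1 was found in 8 of the 9 cells and Dcn in 6. Below, the counts of higher and lower genes against each group, and several of the named genes, are also given from pup cells of cluster 9 alone.

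The first comparison asked how fibroblasts of the junction differ between E19 and the pup. Of 7675 genes tested, 523 were at least 2-fold higher in the pup (6.81%) and 814 were at least 2-fold lower (10.6%), and the median log2 ratio was −0.05. The ratio reached 4-fold for 85 and 233 genes. The whole interval lay above 2-fold for 194 genes and below it for 151. The UMI minimum applied to both groups together, with 5719877 UMIs at E19 and 393660 in the pup. A gene absent in the pup could pass it at a far lower level than a gene absent at E19. The excess of lower over higher genes is therefore not read as a result. The shares of 6.81% and 10.6%, used as background below, carry the same imbalance. With 5 UMIs added in place of 1, which weighs on the shallower pup sums, the counts were 845 higher and 283 lower. Without the 9 cells outside cluster 9 they were 553 and 890, sharing 485 and 753 genes with the counts over all 82 cells. The pools also differed in sex: the 4 Y-linked genes measured had 3 UMIs in the pup GE-SCJ and 360 at E19. Against the 352 E19 cells with Xist and without Y-linked UMIs the counts were 409 and 620, of which 367 and 574 were shared.

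Serpina3n, a secreted inhibitor of serine proteases (chr12:104406729-104414329, plus strand, GRCm38), stood furthest above E19. It had 137 UMIs in the pup (348 CPM) and 1 UMI at E19 (0.175 CPM), a log2 ratio of 9.97 with an interval from 8.09 to 13.03. With so few UMIs at E19 the ratio depended on the setting, at 8.43 with 5 UMIs added and 9.07 without cells with a UMI of Mki67 or Top2a. It was also present in the pup esophagus at 156 CPM and the pup stomach at 143 CPM, and the adult GE-SCJ had none in 15 cells. Serpina3n belongs to a cluster of close paralogs, so its reads may be split among them. In the pup GE-SCJ it came from 33 cells, all in cluster 9.

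Fmo2, a flavin-containing monooxygenase, was the most abundant of the genes named here by size of change, at 71.3 CPM at E19 against 1735 CPM in the pup (log2 ratio 4.60, interval 4.42 to 4.78). Scara5, a ferritin receptor, went from 27.3 to 424 CPM. The BMP antagonist gremlin 1 (Grem1, chr2:113746164-113758646, minus strand) stood at 2.39 and 10.8 CPM on the embryonic days, 147 CPM in the pup and 8.53 CPM in the adult. Its 58 UMIs came from 16 of the 82 cells.

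The other named genes were Dapk1, a death-associated protein kinase (12.8 and 183 CPM at E19 and in the pup), Adh1, an alcohol and retinol dehydrogenase (13.3 and 170.2 CPM), Trib1, a pseudokinase (15.7 and 196 CPM), and the matrix protein tenascin X (Tnxb, 43.4 and 528 CPM). Pcsk5, a proprotein convertase, stood at 14.9 and 178 CPM, the dipeptidase Dpep1 at 28.7 and 343 CPM, and the nucleobase transporter Slc43a3 at 45.1 and 470 CPM, where the log2 ratio was 3.38. All 11 were lower at E15 than in the pup as well. In the adult GE-SCJ, from 15 cells that lay near E19 cells in the cell cycle and fetal lists, all 11 lay below the pup level. The same change over stage, measured in the esophagus and the stomach from their own E19 fibroblasts, was 1.79 and 4.35 for Fmo2 and 1.47 and 3.91 for Scara5.

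**Figure D1:**
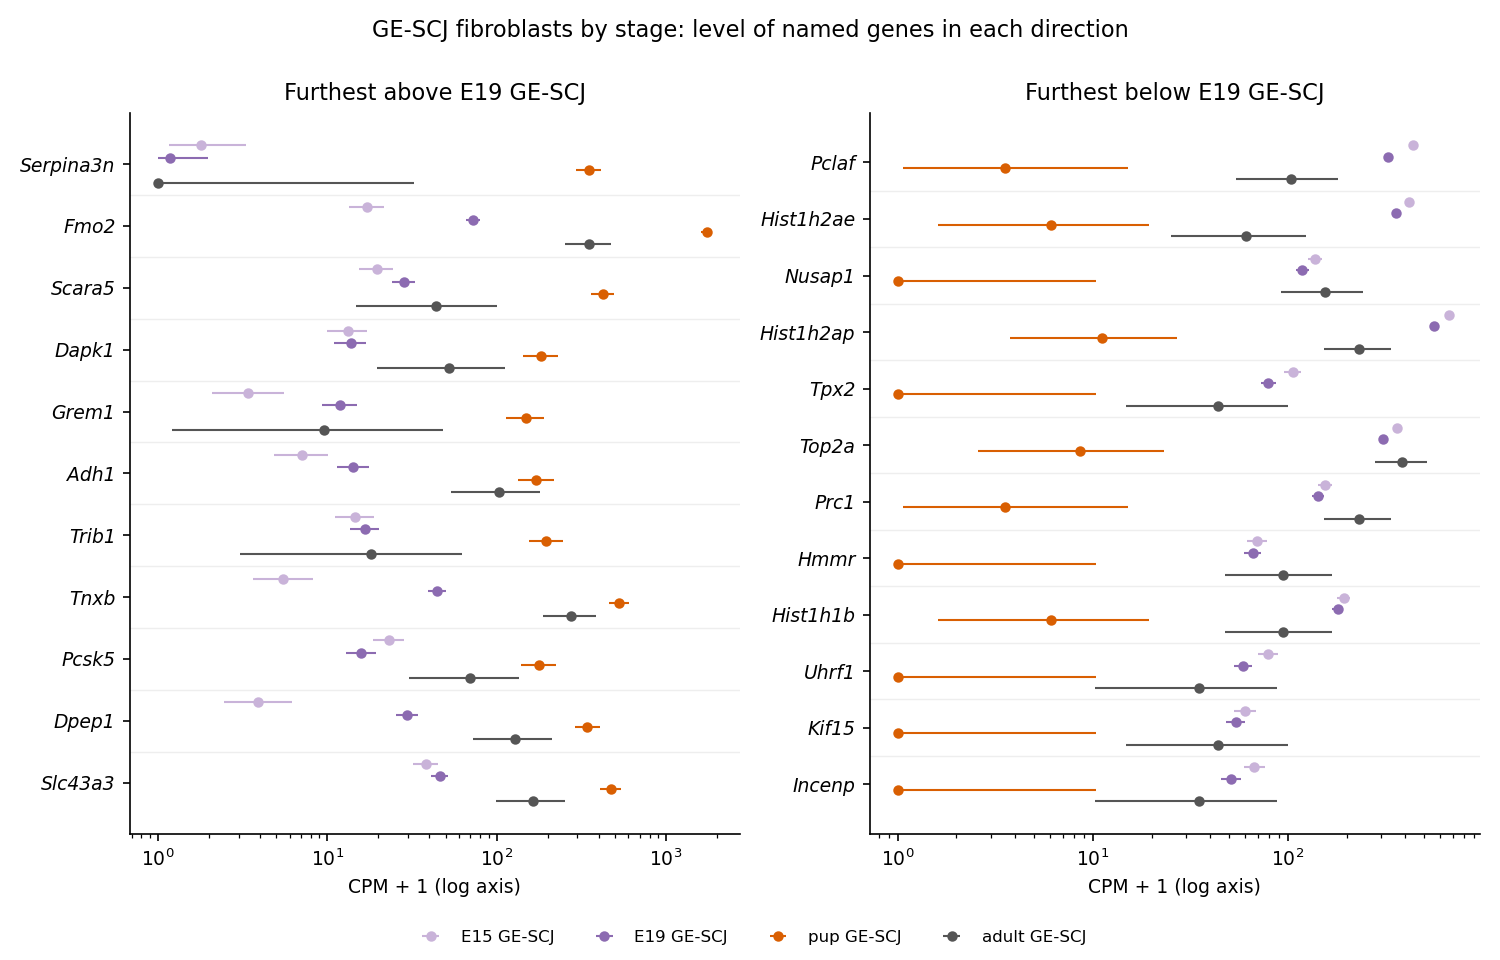
Level of 11 genes far above (left) and the 12 furthest below (right) the E19 level in GE-SCJ fibroblasts. The horizontal axis is CPM + 1 on a log axis, points are the sum over a group (350, 588, 82 and 15 cells from E15 to adult) and bars are exact 95% Poisson intervals. On the left each pup point lies to the right of the E15 and E19 points, and on the right 6 genes have no UMI in the pup.

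The genes furthest below E19 were genes of DNA replication and mitosis. Pclaf, a partner of the replication clamp, had 1 UMI in the pup and 1851 at E19 (2.54 and 324 CPM, log2 ratio −5.99, interval −9.04 to −4.14). DNA topoisomerase II alpha (Top2a), which untangles chromosomes, had 3 UMIs in the pup and 1750 at E19 (7.62 and 306 CPM). The spindle proteins Nusap1, Tpx2, Hmmr, Kif15 and Incenp and the methylation cofactor Uhrf1 had no UMI in the pup. Set against a floor of 3 UMIs for the whole pup group, they were at least 15.4-fold lower (Nusap1), 10.3-fold (Tpx2), 8.56-fold (Hmmr), 7.62-fold (Uhrf1), 6.97-fold (Kif15) and 6.56-fold (Incenp). Prc1, another spindle protein, had 1 UMI against 809. The histone genes Hist1h2ae, Hist1h2ap and Hist1h1b had 2, 4 and 2 UMIs against 2034, 3204 and 1024, and reads of these near-identical copies cannot be assigned with certainty. With 5 UMIs added in place of 1, all 12 ratios moved toward 0 by over 1.5 times in linear fold, to −4.41 for Pclaf, −3.92 for Top2a and −3.22 for Nusap1.

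All 27 genes of the cell cycle list were tested, and all 27 were at least 2-fold lower in the pup, beside 10.6% of all genes tested (median log2 ratio −2.70, beside −0.05 for all genes tested). The list summed to 5998 CPM at E19 and at 1115 CPM in pups, and to 1607 and 1872 CPM in the pup esophagus and stomach. The 15 adult GE-SCJ cells summed to 5657 CPM, near the E19 level, against 798 CPM in the adult esophagus. On the list of fetal RNA-binding and chromatin genes they summed to 5537 CPM, against 6521 CPM in the E19 GE-SCJ and 2191 CPM in the adult esophagus. Their median mitochondrial share was 7.30%, against 2.83% in the adult esophagus. Whether these 15 cells stand for adult junction fibroblasts was not tested. The proliferation marker Mki67 stood at 145 CPM at E19, 10.2 CPM in the pup GE-SCJ, 30.3 CPM in the pup esophagus and 76.1 CPM in the pup stomach. Deposited phase calls gave 149 S and 86 G2M cells of 588 at E19 and 2 S cells of 82 in the pup. The pup had 0 cells in G2M, which allows a share of up to 3.66%. Cells with a UMI of Mki67 or Top2a were then left out of both groups (201 of 588 and 6 of 82). This left 397 genes lower than at E19 in place of 814, and 366 higher in place of 523. With fewer cells, fewer genes can reach the UMI minimum, so the part of cycling cells in this drop was not tested. Nusap1, Prc1, Hmmr, Kif15, Tpx2, Hist1h2ae and Hist1h1b no longer reached 2-fold. Of these, Nusap1, Hmmr, Kif15 and Tpx2 had no UMI in the pup, so their pup side is only the UMI added.

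The stretches before the starts of 3 cell cycle genes are printed because members of this list were lower together and at least 1 of 2 short motifs known from such promoters can be read in each, both in Top2a and Cdk1 and CCAAT alone in Ccnb2. The motifs are the CCAAT box (CCAAT, or ATTGG on the other strand) and the cell cycle homology region (TTTGAA, or TTCAAA). Capitals mark every match on either strand in the last 120 bases before the start, taken from RefSeq promoters on GRCm38.p6, and the motifs can share at most 1 base. The 3 genes were chosen for their matches.
Top2a, chr11:99024190-99024309, minus strand: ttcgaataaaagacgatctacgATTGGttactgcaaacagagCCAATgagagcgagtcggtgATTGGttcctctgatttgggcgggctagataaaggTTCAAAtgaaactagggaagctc
Cdk1, chr10:69352913-69353032, minus strand: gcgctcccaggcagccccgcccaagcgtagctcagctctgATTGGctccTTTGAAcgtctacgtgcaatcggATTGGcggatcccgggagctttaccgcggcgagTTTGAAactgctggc
Ccnb2, chr9:70421555-70421674, minus strand: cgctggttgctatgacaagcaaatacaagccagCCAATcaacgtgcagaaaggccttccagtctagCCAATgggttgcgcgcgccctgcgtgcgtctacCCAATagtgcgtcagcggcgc
Of the 27 genes, 21 matched a promoter entry. In the 250 bases before the start, 19 of their 22 promoters held CCAAT (86.4%) against 33.9% of all 32851 promoters, and 7 held TTTGAA (31.8%) against 16.0%. These are matches of letters, not measured binding. Cdk1, the kinase that drives mitosis, was at 132 CPM at E19 against 17.8 CPM in the pup, and cyclin B2 (Ccnb2) was at 60.5 and 10.2 CPM.

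Genes of the fetal growth state were lower too. Of 18 genes on the list of fetal RNA-binding and chromatin genes 14 were tested, 11 were lower and 0 higher (median −1.54). Beside this list and the next, 10.6% of all genes tested were lower and 6.81% higher. The heparin-binding growth factors pleiotrophin (Ptn) and midkine (Mdk) stood at 740 and 932 CPM at E19 and at 114 and 188 CPM in the pup. The transcription factor Sox11 stood at 78.5 and 15.2 CPM, and Tmsb10, an actin-binding peptide and the most abundant member, at 1877 and 673 CPM. The IGF and imprinted list showed no such shift, with 4 of 26 genes higher, 4 lower and a median of −0.16. Among its members, the imprinted growth brake Cdkn1c went from 1512 to 640.1 CPM and Mest from 453 to 160.0 CPM, while the IGF-binding proteins Igfbp3 (26.4 and 257 CPM) and Igfbp5 (803 and 1725 CPM) were higher in the pup. Igf2 stood at 656 and 455 CPM and H19 at 1497 and 1837 CPM, neither at 2-fold.

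The highest list median belonged to genes of glucocorticoid response, redox and metal handling. Of 18 genes 13 were tested, 11 were higher and none lower (median 1.41). The background against E19, for this list and the immediate early list below, was 6.81% higher and 10.6% lower. The glucocorticoid-induced genes Fkbp5, a chaperone of the steroid receptor, and Tsc22d3 stood at 24.8 and 66.6 CPM at E19 and at 139.7 and 353 CPM in the pup. The metal-binding metallothioneins Mt1 and Mt2 stood at 218 and 82.2 CPM at E19 and at 1280.3 and 432 CPM in the pup. The actin-severing protein gelsolin (Gsn) held 36.0% of the list in the pup, at 2253 CPM against 482 CPM. Against the pup esophagus 1 of 12 tested genes of this list was higher (Gpx3), and against the pup stomach 0 of 12 reached 2-fold, counts that are near the 2.12% and 1.36% of all genes that were higher in these comparisons. The list summed to 1607.4 CPM in the E19 GE-SCJ and to 6254, 6499.5 and 5021 CPM in the pup GE-SCJ, esophagus and stomach. The immediate early and heat shock list, which enzymatic dissociation is known to induce, was also higher: 13 of 26 genes at 2-fold or more and 2 below (median 0.83). Fos stood at 1838 and 4057 CPM, and the heat shock gene Hspa1a at 112 and 518 CPM, while Egr1 was at 2280 and 2827 CPM. The part of dissociation in the other lists was not tested.

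Complement and chemokine genes formed the next group, with 10 of 19 tested genes higher and 2 lower (median 1.07). Over all genes tested 6.81% were higher and 10.6% lower, and the 2 lower genes are close to that background. Next to Serpina3n, the complement proteases C1ra and C1s1 stood at 23.4 and 47.7 CPM at E19 and 124 and 213 CPM in the pup. The chemokines Cxcl1 and Cxcl13 stood at 24.1 and 30.4 CPM at E19 and at 124 and 137 CPM in the pup. Complement C3, the hub of the cascade, had 58 UMIs in the pup GE-SCJ (147 CPM) and 32 at E19 (5.59 CPM), too few for the minimum of 100. It was at 33.5 CPM in the pup esophagus and 6.72 CPM in the pup stomach. Lipid genes had 7 of 14 tested members higher and 1 lower (median 1.01): the adipogenic factor Cebpd at 245.5 and 1961 CPM and the fatty acid carrier Fabp4 at 12.4 and 119 CPM. Fasn, the fatty acid synthase, was lower (64.2 and 20.3 CPM). Apoe, counted among the 7, met a rule for RNA that may have come from other cells, since its 409 CPM lay under 0.1 of the 19800 CPM of immune cells of the same tag. In all, 30 of the genes past 2-fold met that rule, the 3 largest being Fbxl22, Krtdap and Apoe.

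Matrix genes differed in part. The counts of these lists stand beside 6.81% higher and 10.6% lower over all genes tested. The lower genes of the collagen and collagen processing lists are close to that background. None of the 8 tested fibrillar collagens was higher and Col11a1 was lower (183 and 25.4 CPM), and Col3a1 stood at 7412 CPM at E19 and at 12699 CPM in pups, below 2-fold. Basement membrane collagens Col4a1 (754 and 1969 CPM) and Col4a2 (299 and 856 CPM) and the network collagen Col8a1 (78.7 and 721 CPM) were the 3 higher of 15 tested other collagens, and 2 were lower. Of 5 tested small proteoglycans 1 was higher (Aspn) and 1 lower (Lum). Elastin (Eln), the core of elastic fibers, stood at 724 CPM at E19 against 3663 CPM in the pup (log2 ratio 2.34, interval 2.25 to 2.43). With fibrillin 1 (Fbn1, 478 and 1359 CPM), Mfap5 and Efemp1 it made 4 of 15 tested elastic fiber genes higher, with 0 lower. In the collagen processing list 4 of 18 tested genes were higher and 1 lower, with a median of −0.05 like that of all genes. Its crosslinking enzymes Lox and Loxl1 stood at 499 and 145 CPM at E19 and 1141 and 528 CPM in the pup, while the related Loxl3 was the lower gene (33.0 and 10.2 CPM). Proteases and their inhibitors had 11 of 22 tested genes higher and 0 lower (median 0.91), led by the aggrecanase Adamts5 (59.3 and 361 CPM) and the complement C1 inhibitor Serping1 (216 and 1014 CPM).

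**Figure D2:**
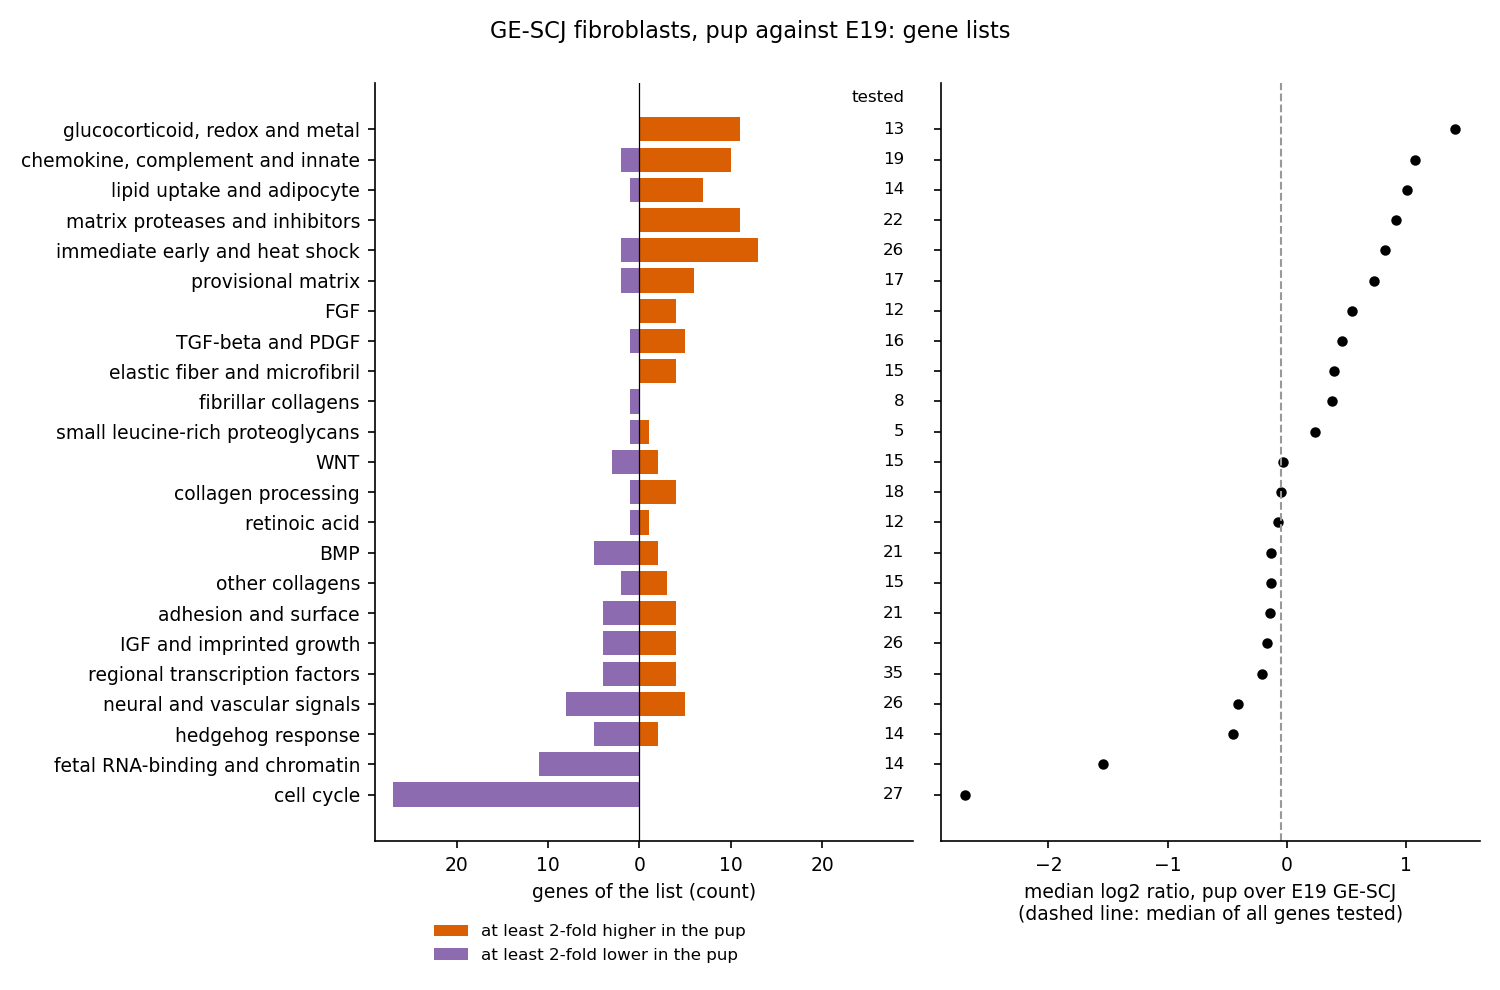
Gene lists in GE-SCJ fibroblasts, pup against E19. Left, the number of genes at least 2-fold higher (right of 0) or lower (left of 0), with the number tested beside them, and right, the median log2 ratio of the tested genes with the median of all genes as a dashed line. Cell cycle (27 of 27 lower) and the glucocorticoid, redox and metal list (11 of 13 higher) mark the ends.

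The hedgehog, BMP, WNT and TGF-beta lists each held genes past 2-fold in both directions. Their counts stand beside 6.81% higher and 10.6% lower over all genes tested, and the 2 higher genes in each of the first 3 lists are close to that background. In the hedgehog list, where Gas1 and Boc are co-receptors and Ptch1, Hhip and the Foxf factors are targets, 2 of 14 tested genes were higher and 5 lower (median −0.45). Gas1 stood at 220.3 and 526 CPM and Boc at 38.5 and 86.4 CPM at E19 and in the pup. The targets Ptch1 (534 and 165 CPM), Hhip (63.3 and 5.08 CPM) and Foxf1 (234 and 102 CPM) were lower. In the BMP list 2 of 21 were higher (Grem1 and the activin inhibitor Fstl3) and 5 lower. The ligand Bmp4 was at 259.8 CPM at E19 and at 231 CPM in pups, and the BMP target Id1 was at 116 and 48.3 CPM. In the WNT list 2 of 15 were higher and 3 lower. The secreted inhibitor Sfrp1 went from 385 to 1692 CPM (log2 ratio 2.14), while Sfrp2 (138 and 45.7 CPM) and the ligand Wnt4 (78.5 and 17.8 CPM) were lower. Rspo3, a WNT amplifier that stem cells depend on, stood at 60.7 and 117 CPM. TGF-beta and PDGF genes had 5 of 16 higher and 1 lower, among them the co-receptor Tgfbr3 (113 and 856 CPM) and the receptor Pdgfra (239 and 676 CPM). FGF genes had 4 of 12 higher, all feedback inhibitors or a receptor (Spry2, Spry4, Dusp6 and Fgfr1), and 0 lower. The lists of neural and vascular signals (5 of 26 higher, 8 lower, median −0.41), adhesion and surface genes (4 of 21 and 4, −0.14), retinoic acid genes (1 of 12 and 1, −0.08) and regional transcription factors (4 of 35 and 4, −0.21, near the background in both directions) had medians near that of all genes or below it. In the first of them the axon guidance cue Slit3 stood at 36.2 and 292 CPM, while the receptor Epha4 and the growth factor Nrg1 were lower. Provisional matrix genes had 6 of 17 higher and 2 lower (median 0.73), among the higher ones Tnxb, Thbs1 and Tnc.

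The second comparison set the pup GE-SCJ against its neighbours. Against the pup esophagus 1696 genes were tested, of which 36 were higher in the GE-SCJ (2.12%) and 52 lower (3.07%). Against the pup stomach 1400 were tested, of which 19 were higher (1.36%) and 15 lower (1.07%). With pup cells of cluster 9 alone the counts were 36 and 49 against the esophagus, sharing 32 and 45 genes with the counts over all cells. Against the stomach they were 16 and 9, and 14 of the 19 higher genes but 5 of the 15 lower genes were shared. Both share the pup GE-SCJ cells. The 3 regions were cut from extracted guts, so their pools may hold the same animals, which the labels do not say. The depth of 82, 151 and 78 cells limits these counts, since the minimum of 100 UMIs left out most genes. At a minimum of 30 UMIs the counts were 148 and 191 against the esophagus and 91 and 144 against the stomach.

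Rgs5, a regulator of G protein signalling known from pericytes, had the largest ratio among the genes higher than in the esophagus. Rgs5 stood at 356 CPM in the GE-SCJ, 46.2 CPM in the esophagus and 352 CPM in the stomach, and smooth muscle cells of the pup GE-SCJ held 637 CPM. Within cluster 9 alone it was at 291 CPM in the GE-SCJ, and without the 1% of cells richest in it the log2 ratio was 4.34 in place of 2.91. The pericyte list summed to 711, 229 and 694 CPM in the GE-SCJ, esophagus and stomach, its marker Higd1b was at 0 in all 3, and its part in this difference was not tested. Igfbp5, an IGF-binding protein of the matrix, stood at 1725, 333 and 1070.5 CPM in the same order. Bmp4 stood at 231, 65.3 and 193 CPM, with a log2 ratio to the esophagus of 1.80 (interval 1.26 to 2.37). The chemoattractant and adipokine Rarres2, the protease inhibitor Pi15, the transcription factors Maf and Zeb2 and the adhesion molecule Ncam1 made a like pattern: 742, 406, 384, 549 and 279 CPM in the GE-SCJ against 268, 108, 131, 190 and 98.7 CPM in the esophagus. The membrane proteins Tmem176a and Tmem176b and the metalloprotease Adamts19 were higher as well.

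Angptl1, an angiopoietin-like secreted protein, was furthest below the esophagus, with 4 UMIs in the GE-SCJ (10.2 CPM) and 141 in the esophagus (225 CPM). Ptn stood at 114 CPM in the GE-SCJ, 981 CPM in the esophagus and 222 CPM in the stomach. Ptn was at 740 CPM in the E19 GE-SCJ, while the esophagus held 667 CPM at E19 against 981 CPM in the pup. Chodl, Zfp703 and the basement membrane protein fibulin 2 (Fbln2) stood at 25.4, 68.6 and 53.4 CPM against 188, 320.1 and 204 CPM. Ecm2, Alcam, Ier5, Sat1, Gadd45b and the guidance cue netrin 1 (Ntn1, 117 against 341 CPM) were also lower. Igfbp3, Capn6 and Ier3 were lower than in both neighbours, Igfbp3 standing at 257 CPM against 799.5 CPM in the esophagus and 531 CPM in the stomach. Its log2 ratio to the stomach was under 2-fold when CPM was averaged over cells (−0.97) and without the 1% of cells richest in it (−0.95). Of the immediate early and heat shock list 6 of 21 tested genes were lower than in the esophagus, among them Hspa1a (518 against 1343 CPM) and Klf2 (257 against 690 CPM), and 1 was higher (Zfp36). Among all genes of this comparison 3.07% were lower and 2.12% higher, and the 1 higher gene is close to that background.

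Against the stomach, the higher genes included a lectin, matrix proteins and protease inhibitors. The lectin Cd302 stood at 264 against 73.9 CPM and the matrix protein hemicentin 1 (Hmcn1) at 404 against 129.9 CPM. Serping1 stood at 1014 against 448 CPM, Serpina3n at 348 against 143 CPM, Scara5 at 424 against 177 CPM and Plac8 at 356 against 137 CPM. Hmcn1, Plac8, Serpina3n, Tmem176a and Tmem176b were at least 2-fold above both neighbours, with the esophagus at 174, 169, 156, 63.7 and 84.4 CPM. Dapk1, Ecm1, Plxdc2 and the cytokine co-receptor Il6st were higher as well, down to a log2 ratio of 1.09 for Il6st. Within cluster 9 alone the log2 ratios of Serpina3n, Scara5, Plxdc2 and Serping1 to the stomach were 0.96, 1.00, 0.97 and 0.89, all under 2-fold. Without cells with a UMI of Mki67 or Top2a, Scara5 was at 0.99 and Il6st at 0.87, and when CPM was averaged over cells Il6st was at 0.87, again under 2-fold. Without the 1% of cells richest in it, the ratio of Serpina3n was 2.59.

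Below the stomach stood the matrix proteins periostin (Postn, 257 against 719 CPM) and Tgfbi (109 against 314 CPM), the BMP modulator Twsg1 (81.3 against 172 CPM, a log2 ratio of −0.88 in cluster 9 alone and −0.90 when CPM was averaged over cells), Capn6 (66.1 against 193 CPM) and the stress gene Ier3 (99.1 against 358 CPM). Another group of the named genes consisted of products of columnar epithelium: the mucin Muc5b (50.8 against 378.5 CPM), Mucl3, gastrokine Gkn1 (277 against 611 CPM) and the proton pump subunit Atp4a (198 against 414 CPM). In the pup stomach 5 of the 78 cells had over 10% mitochondrial UMIs. These 5 cells held 8.07% of the UMIs but 87.6% of those of Muc5b, 69.4% of Mucl3, 65.6% of Gkn1, 65.4% of Atp4a and 66.8% of the nuclear RNA Neat1, and 1.26% of those of Col1a1. Without cells of that kind the log2 ratios of the GE-SCJ to the stomach were −0.01 for Muc5b, 0.28 for Mucl3, 0.27 for Gkn1, 0.34 for Atp4a and 0.39 for Neat1, in place of −2.84, −1.28, −1.14, −1.05 and −1.07. In cluster 9 alone they were −0.13, 0.11, 0.14, 0.19 and 0.39. No pup GE-SCJ fibroblast exceeded 4.90% mitochondrial UMIs.

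**Figure D3:**
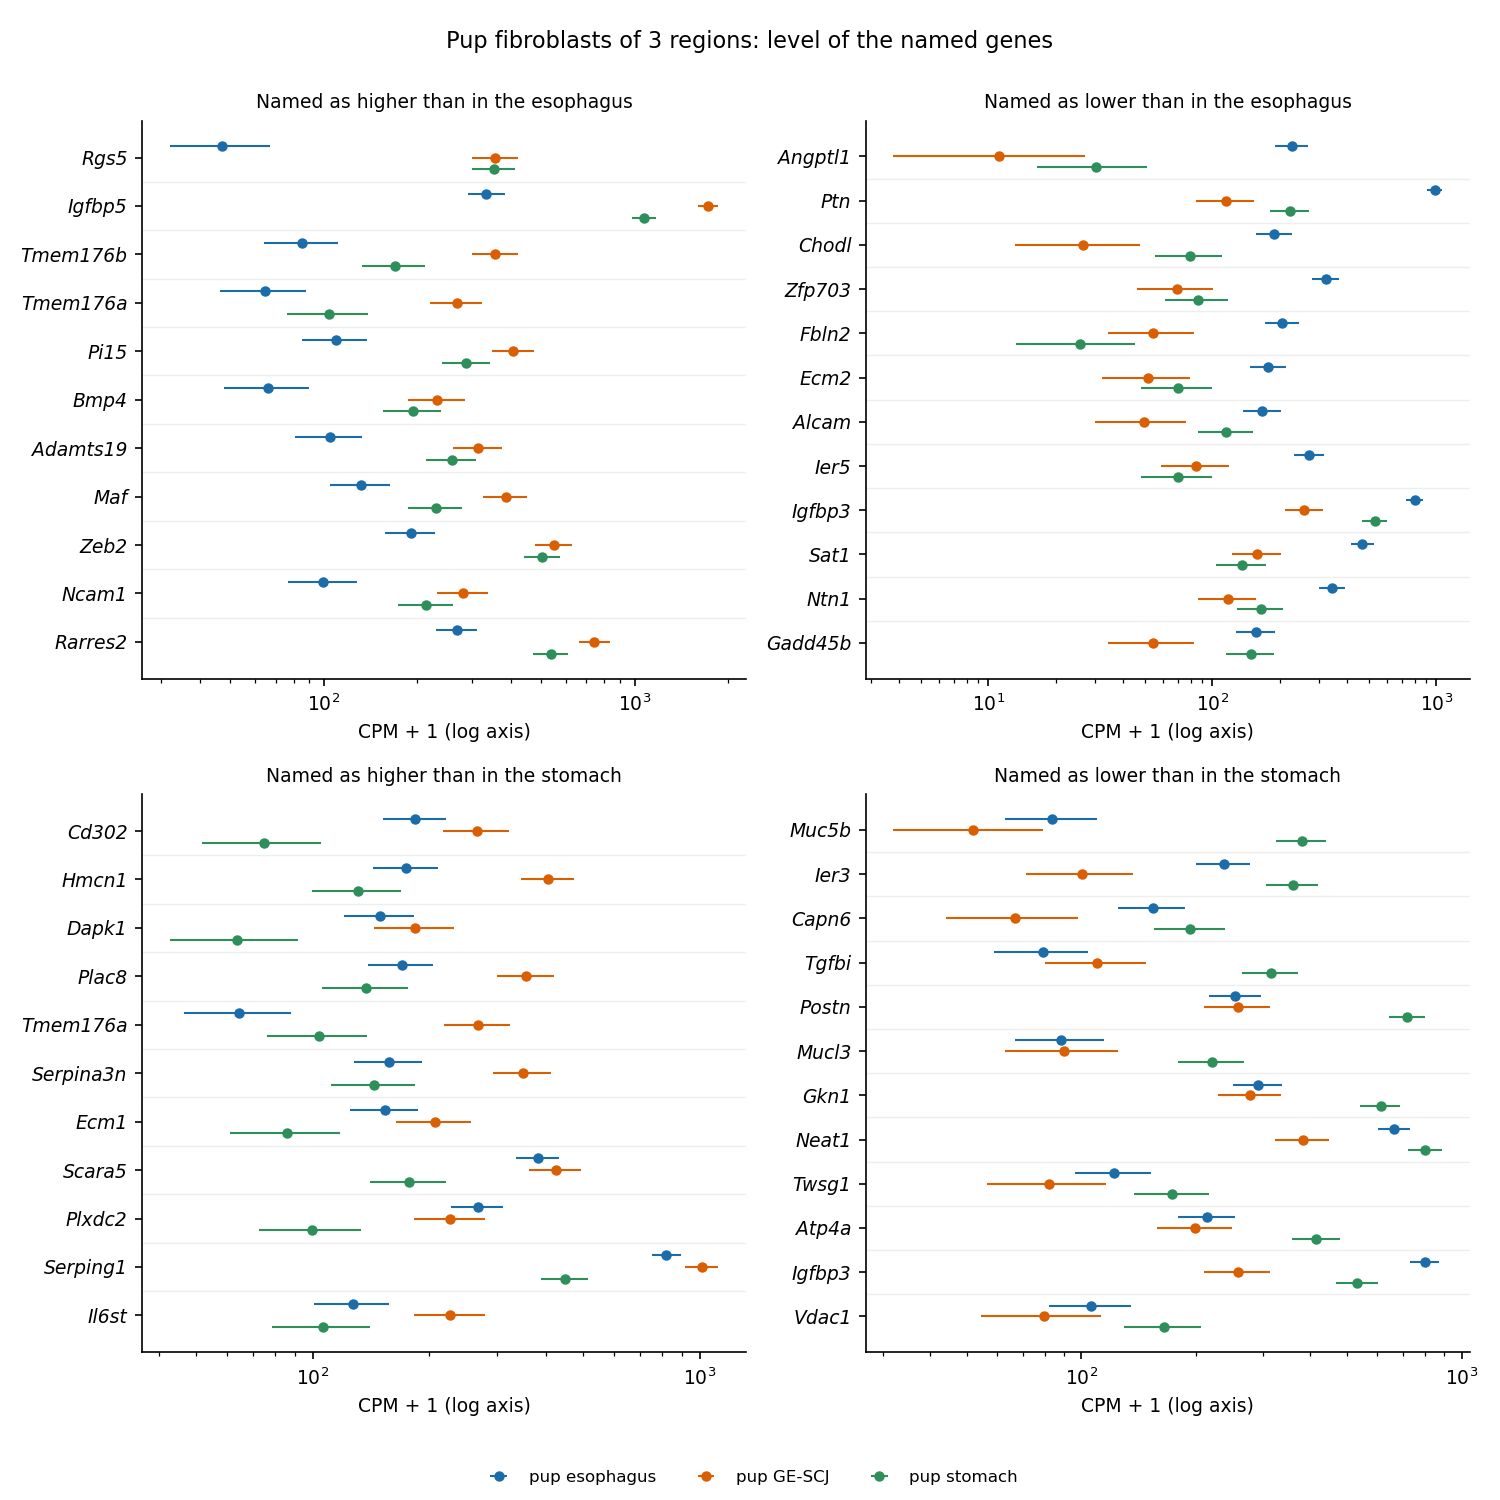
Level of the named genes in fibroblasts of the pup esophagus, GE-SCJ and stomach (151, 82 and 78 cells). The horizontal axes are CPM + 1 on log axes and bars are exact 95% Poisson intervals. Of the genes named against the esophagus, Rgs5 (356 and 352 CPM in GE-SCJ and stomach) and Zeb2 lie with the stomach, while Hmcn1 and Plac8 in the lower left panel lie above both neighbours.

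To place the junction between its neighbours, genes that told the 2 organs apart before birth were used. Between E19 esophageal and E19 stomach fibroblasts, which are independent of the pup cells, 92 genes were at least 4-fold higher in the esophagus and 104 in the stomach. A 2-fold difference in the same direction persisted in the pup for 43 and 55 of them. For each of these 98 genes the pup GE-SCJ level was placed on a line from the pup stomach (0) to the pup esophagus (1). The median position was 0.32 with quartiles at 0 and 0.70, and 58 of the 98 genes lay under 0.5. This pooled value places the junction nearer to neither organ, since the median was 0.0938 over the 43 esophageal genes and 0.592 over the 55 stomach genes, each toward the organ in which the set is low. The pup levels that kept these genes are also the ends of the line, and some genes rest on few UMIs in the pup, so the positions are a description only. With no condition on the direction in the pup the median was 0.32 over 182 genes. In the cells of cluster 9 alone, the median was 0.20 over 78 genes.

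Among the transcription factors of the stomach set some lay with the stomach and others, in linear CPM, closer to the esophagus. Barx1, a homeobox factor required in the mesenchyme for stomach fate (chr13:48662998-48666507, plus strand), stood at 208 CPM in the pup GE-SCJ, 14.3 CPM in the esophagus and 269 CPM in the stomach. The E19 GE-SCJ held Barx1 at 330.1 CPM, and the cells of cluster 9 in the pup GE-SCJ at 172 CPM. Hoxa5 (chr6:52201754-52204587, minus strand) stood at 76.2, 1.59 and 60.5 CPM in GE-SCJ, esophagus and stomach, and Pitx1 at 114, 14.3 and 71.7 CPM. Zfhx4 stood at 86.4, 20.7 and 117 CPM, and the WNT and FGF pathway modulator Shisa3 at 83.8, 9.56 and 110 CPM. Grem1 stood at 147, 11.2 and 96.3 CPM. Closer to the esophagus were Isl1, a LIM-homeobox factor, at 40.6, 15.9 and 107.5 CPM in the same order, Hand2 at 43.2, 14.3 and 85.1 CPM, Six2 at 22.9, 6.37 and 69.4 CPM, Etv1 at 78.7, 52.6 and 125 CPM, and Snai2 at 38.1, 19.1 and 60.5 CPM. These 5 were chosen after their values were seen and had from 9 to 31 UMIs in the pup GE-SCJ. Of the 31 UMIs of Etv1, 24 lay in the 9 cells outside cluster 9, which also held most UMIs of Kit and Ano1. The cells of cluster 9 held Etv1 at 19.8 CPM. Of the esophageal factors, Tbx5 and Foxd1 had no UMI in the pup GE-SCJ, which allows up to 7.62 CPM, and the pup esophagus held 15.9 and 4.78 CPM.

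Of the 10 kept esophageal genes with at least 20 UMIs in the pup GE-SCJ, 6 lay under 0.5, on the stomach side. So did 10 of the 12 kept stomach genes with that minimum, which leaves out genes of either set low in the GE-SCJ. Among the esophageal genes on the esophageal side, Fmo2 was at 1735 CPM in the pup GE-SCJ, 2016 CPM in the esophagus and 927 CPM in the stomach. Scara5 stood at 424, 381 and 177 CPM, the sodium channel Scn7a at 142, 112 and 29.1 CPM, and the oncostatin M receptor Osmr at 114, 121 and 53.8 CPM. Those closer to the stomach included Adh1 at 170.2, 363 and 117 CPM, the angiotensin receptor Agtr2 at 284, 546 and 246 CPM, Entpd2 at 76.2, 217 and 85.1 CPM, and Ntn1 at 117, 341 and 163 CPM.

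**Figure D4:**
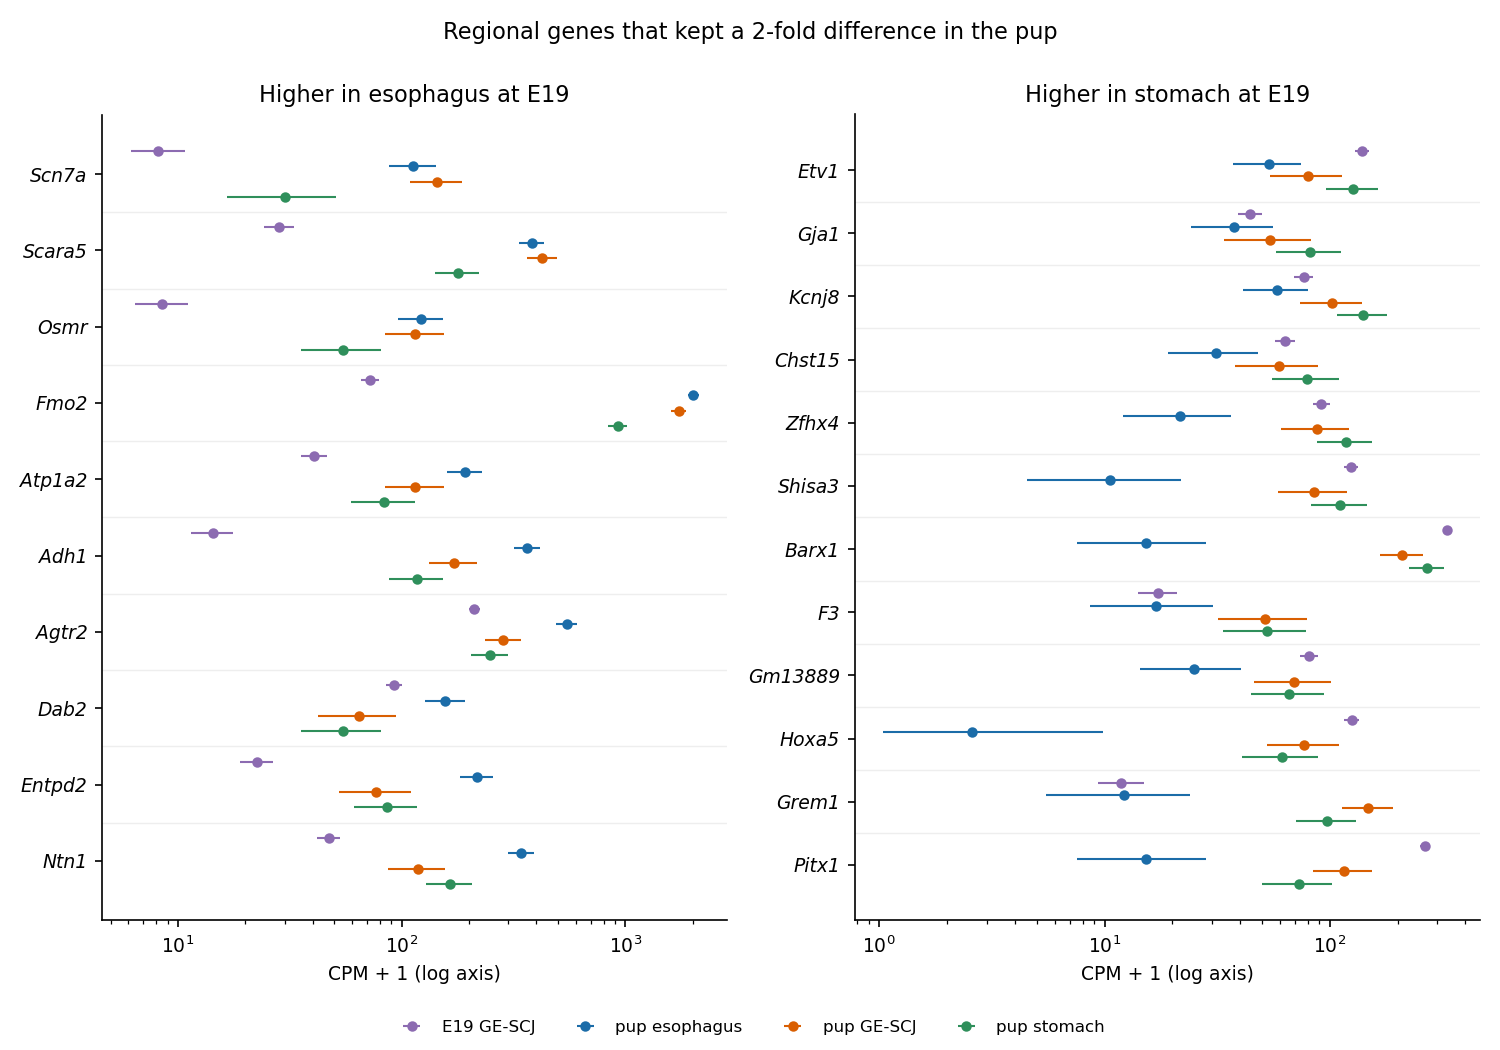
Genes that told esophageal from stomach fibroblasts at E19, kept a 2-fold difference in the pup and had at least 20 UMIs in the pup GE-SCJ (10 esophageal, left, and 12 stomach, right), a minimum that leaves out genes of either set low in the GE-SCJ. Points are CPM + 1 on a log axis with exact 95% Poisson intervals, for the E19 GE-SCJ and for the pup esophagus, GE-SCJ and stomach. Barx1, Hoxa5 and Pitx1 of the pup GE-SCJ lie with the stomach, Etv1 lies between both organs, and Scara5 and Scn7a lie with the esophagus. Most Etv1 UMIs of the pup GE-SCJ came from cells outside cluster 9.

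Summed over all genes of each set, the level gave a different picture over time. The 92 genes that were esophageal at E19 summed to 2194 CPM in the E19 GE-SCJ and 9308 CPM in the pup GE-SCJ. They summed to 1624 and 6266 CPM in the E19 and pup stomach, while the esophagus held 10273 and 11650 CPM. The gap between E19 esophagus and E19 stomach follows from how both sets were chosen. Gsn made up 24.2% of the sum in the pup GE-SCJ. Of the 28 members that could be tested between E19 and pup GE-SCJ 18 were higher and 2 lower (median log2 ratio 1.66). The higher ones included Fmo2, Scara5, Adh1, Dpep1 and Clec3b (86.4 and 759.5 CPM). The background over all genes tested was 6.81% higher and 10.6% lower. The 104 stomach genes went the other way in the GE-SCJ, from 5402 to 3112 CPM. Of 72 tested members 4 were higher, close to that background, and 33 lower (median −0.80). The sum of the 104 genes was also lower in the pup stomach than at E19 (6521 and 4244 CPM at E19 and in the pup), while the esophagus held 945 and 1605 CPM.

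The esophageal share of a cell, its UMIs of the esophageal set as a percentage of UMIs of both sets, had a median of 78.1% over the 82 pup GE-SCJ cells (quartiles 67.7% and 85.9%). The lowest cell was at 5.26% and the highest at 95.9%, and 13 cells lay under 50%, 6 of all cells being within 45% to 55%. The medians were 87.3% in the pup esophagus and 64.9% in the pup stomach, and the ranges of the 3 groups overlapped. At E19 they were 94.4%, 29.7% and 19.4% in esophagus, GE-SCJ and stomach. The genes were chosen on these E19 esophagus and stomach cells, so the high and low ends at E19 follow from the choice. With genes chosen at E15 the E19 medians were 98.5%, 69.8% and 55.9%. The E15 GE-SCJ had a median of 19.1%, and the 15 adult GE-SCJ cells had 37.9%, spread from 7.41% to 96.0%. The order esophagus, GE-SCJ, stomach in the pup was the same in all of the alternative settings tried for this share. The median share in the pup GE-SCJ ran from 67.1% without the 5 most abundant genes of each set to 91.8% with genes chosen at E15.

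**Figure D5:**
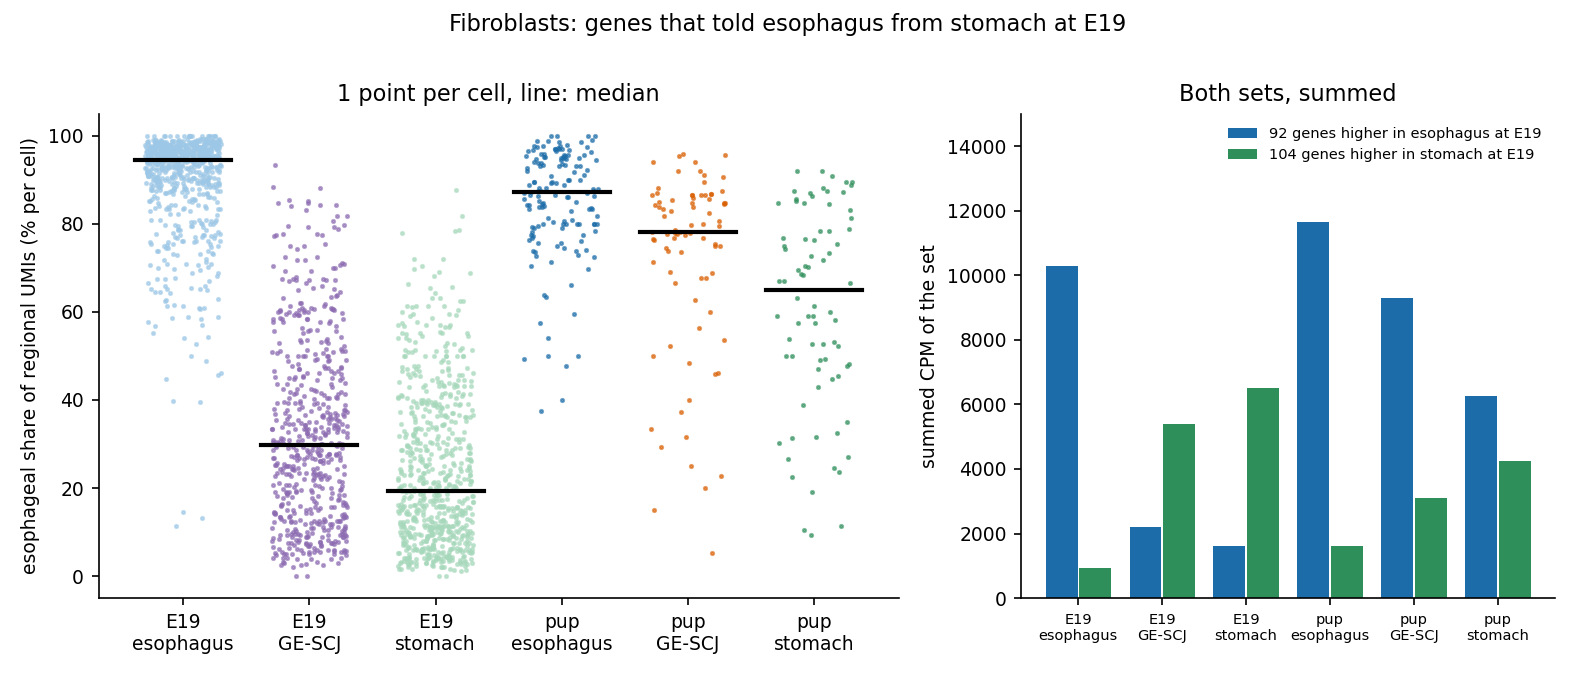
Left, the esophageal share of regional UMIs (percent per cell, 1 point per cell, black line at the median) in fibroblasts of 3 regions at E19 and in the pup, and right, the summed CPM of the 92 esophageal and 104 stomach genes. The pup GE-SCJ median of 78.1% lies between 64.9% in the stomach and 87.3% in the esophagus, and above the 29.7% of the E19 GE-SCJ.

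Within the pup GE-SCJ, variation between cells was examined after thinning to 3000 UMIs, which 74 of the 82 cells reached. Over 410 genes with a mean of at least 1 UMI per cell, the variance was 1.56 times the mean in the median, where counting alone gives about 1. Matrix Gla protein (Mgp), which binds mineral and BMPs, had a ratio of 22.3 with a median of 12 and a maximum of 92 UMIs per cell. Eln had a ratio of 14.2, and the 8 cells richest in it held 37.8% of its UMIs. Hspa1b was at 0 in 52 cells, and its richest 8 cells held 82.9%. H19 (ratio 11.2), Mt1 (9.87), Fos (9.16), S100a6 (8.86) and Igfbp5 (7.69) were among the genes that followed. Hemoglobin RNA varied most of all: it summed to 3678 CPM against 1425 CPM at E19 and 1524 and 426 CPM in the pup esophagus and stomach, and 5 of the 82 cells held 88.5% of it.

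Markers of known fibroblast kinds were spread over the cells. At 3000 UMIs the 10 genes of universal or adventitial fibroblasts gave a median of 5 UMIs per cell in the pup GE-SCJ, 2 at E19, 3 in the pup esophagus and 3 in the pup stomach. The 7 genes of lamina propria or submucosal fibroblasts gave medians of 17, 7, 10 and 12, and each of the 74 GE-SCJ cells held at least 3. In the same order the subepithelial list gave medians of 3, 1, 3 and 2, and the list of Rspo3-type trophic fibroblasts gave 2 in each group. Of the subepithelial list, 7 of 10 genes had a UMI, and Pdgfra made up 676 of its 993 CPM, while Sox6, Dll1 and Bmp3 were at 0. The tendon or fascia genes Scx, Tnmd and Kera had none. No cell was given the name of a subtype on these lists.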

How the data were processed

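Cells from esophagus, GE-SCJ and stomach of 4 stages were multiplexed with CellPlex tags and sequenced as 1 gene expression library and 1 tag library. The deposited values are raw UMI counts per gene and cell (19550 genes), which the authors made with Cell Ranger 6.1.1 on the mouse build mm10, per the labels. The authors also deposited each cell's class, region and stage, graph cluster, phase, UMI count and mitochondrial percent, after removing cells of few or very many genes, high counts or a high mitochondrial percent. No further doublet caller was run.

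UMIs of all cells in a group were added up per gene, and UMI totals matched the deposited totals in all cells. Levels have exact Poisson intervals, and ratios have exact intervals conditional on the sum of both counts. Shares have Clopper-Pearson intervals. The floor was 3 counts. With 1 pooled sample per group no p-value was computed. A gene was set aside as possible RNA of other cells when its level was below 0.1 of that in another class of the same tag with at least 20 cells. For each comparison and direction the 12 genes with the largest ratio were named, without sex-linked, hemoglobin, mitochondrial and ribosomal protein genes, together with members of the gene lists, and 22 regional genes by their UMI number, chosen after their values were seen. Some genes are not reported here. The members and all lists were chosen with earlier results of these data known. On simulated counts 95.5% of the genes changed by 4-fold between E19 and pup GE-SCJ were called, among 7658 genes, and 1.70% of unchanged ones. The simulated counts held counting error only, and the changed genes were drawn from those with at least 100 UMIs at E19. Between the pup GE-SCJ cells the variance was 1.56 times the mean in the median. These shares are therefore not error rates of the comparison itself. Gene positions are from GENCODE M21 on GRCm38. Python 3.11.15, numpy 2.4.6 and scipy 1.17.1 were used. Alternatives varied the UMIs added, the UMI minimum, the fold, the library size and the cells kept.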

Additional observations from a re-analysis of the deposited data

Results flagged for a closer look

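Some genes moved in opposite directions between E19 and pup in 2 regions, each by at least 2-fold. The difference was not tested, since each group was 1 pooled sample, and the low ones rest on few UMIs. The log2 ratio of pup over E19 was 1.10 in the GE-SCJ and −1.35 in the esophagus for Rgs5, 1.67 and −1.16 for the surface protein Cd34, and 1.03 and −1.11 for the guidance cue Sema3c. It was −1.63 in the GE-SCJ and 1.89 in the esophagus for the receptor Epha4, −2.25 and 1.44 for the chemokine receptor Ackr3, −1.20 and 1.11 for Id1, −1.67 and 1.53 for Egr3, and −1.35 and 1.74 for the adhesion molecule Alcam. Against the stomach, Id4 was at −2.61 in the GE-SCJ and 1.25 in the stomach, with 1 UMI of Id4 in the pup GE-SCJ.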

How the results depend on the processing

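Each group was 1 pooled sample, so no replicate could be left out and no value says how animals differ. No paired analysis was possible because each region and stage was pooled under 1 tag with no label of animals, although the 3 regions of a stage may share them. The balance of higher and lower genes turned against E19 with 5 UMIs added, against the esophagus, where 36 were higher and 52 lower, with smooth muscle cells joined, and against the stomach, where 19 were higher and 15 lower, with the minimum at 30 or at 300 UMIs. Counts moved by more than 1.5 times under the following settings. Without cells with a UMI of Mki67 or Top2a, 397 genes were lower than at E19. With 5 UMIs added, 845 were higher and 283 lower than at E19. With at least 30 UMIs the counts higher and lower were 1111 and 1312 against E19, 148 and 191 against the esophagus, and 91 and 144 against the stomach. With at least 300 UMIs they were 208 and 325, 9 and 15, and 3 and 4, and at 4-fold 85 and 233, 5 and 6, and 3 and 1. With smooth muscle cells joined to the fibroblasts, 113 were higher and 88 lower than in the esophagus. Against the stomach 7 were lower without the 1% of cells richest in each gene, and 9 with pup cells of cluster 9 alone. The last setting, and the one on E19 cells with Xist and without Y-linked UMIs, were chosen after seeing the data. The median esophageal share was 91.8% with genes chosen at E15 and 67.1% without the 5 most abundant genes of each set. Over all settings and comparisons, 15 results on the gene lists moved, 629 stayed the same and 0 reversed. Of the moves, 4 came with pup cells of cluster 9 alone and 4 without cells with a UMI of Mki67 or Top2a. Named genes changed direction in these cases. Without cells with a UMI of Mki67 or Top2a, Hist1h2ap was at 0.64 and Top2a at 3.18 on the log2 scale, since that setting takes out every Top2a UMI, and Atp4a was at 0.28 against the stomach. Against the stomach without cells over 10% mitochondrial UMIs, Mucl3 was at 0.28, Gkn1 at 0.27, Neat1 at 0.39 and Atp4a at 0.34. In cluster 9 alone they were at 0.11, 0.14, 0.39 and 0.19. Atp4a was at 0.34 without cells with markers of other classes and 0.29 without its richest cells. Other causes were not tested.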
